A study of Triticum aestivum and Aegilops tauschii and Triticum carthlicum with 18 samples.

Results

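The 60 probe sets described here were below the parental RNA mixture in both of 2 synthetic wheat hexaploids, Allo-AT5 and Allo-AT9, and were chosen by the measured values of those lines and mixtures. A probe set is a group of short probes on the array that reads 1 transcript or a few close copies of it. The rule kept probe sets whose 4 mixture arrays all reached a log2 level of 4.5 (a rounded value, the same wherever a probe set is called expressed or under the level below), took for each line the mean of the mixture minus the mean of the line's 4 arrays, and scored each probe set by the smaller of these 2 differences. After 9 named transcript families had been left out, 22458 of 61115 probe sets were eligible, and the 60 with the highest scores were kept. Because the rule chose on the line arrays and the mixture arrays, every distance between a line and its mixture is given below as a description and was not tested.

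The study asked how expression in newly made allohexaploid wheat departs from the sum of its parents. Allo-AT5 came from TTR04, a line of the durum wheat Triticum turgidum ssp. durum cv. Inbar, crossed with the goat grass Aegilops tauschii (line TQ27), and Allo-AT9 from T. turgidum ssp. carthlicum (line TTH01) crossed with the same TQ27; both hybrids were doubled with colchicine and then selfed. The 9 groups, with 2 arrays each, were Allo-AT5 at selfed generations S5 and S4, Allo-AT9 at S5 and S4, the mid-parent mixtures MPV5 (TTR04 and TQ27 RNA) and MPV9 (TTH01 and TQ27 RNA), and the parents TTR04, TTH01 and TQ27. The mixtures combined tetraploid and diploid RNA at 2:1 and carry the same genotype tag as the synthetic lines in the labels although they are parental RNA. All plants shared 1 growth regime of 22 °C by day and 20 °C by night with 12 h of light, and each RNA sample was a pool of 10 seedlings taken from the second leaf at the stage of 3 leaves. Each cross is represented by 1 line, so a result for a line is a result for that line and not for the cross. With pools as replicates, the p-values below measure the spread between these pools.

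An allohexaploid wheat carries the A and B genomes of its tetraploid parent and the D genome of its goat-grass parent, so that most genes are present as closely related A, B and D copies. Where the copies are simply added together, the level in the hybrid equals that of a mixture of parental RNA, and a departure from the mixture is called non-additive. The probes of this array were designed on common wheat, and 1 probe set can bind RNA of several copies and of the parents with unequal strength. The suffixes of probe set names, whose first dot is given here as _, say as much: _s_at and _x_at mark probe sets whose probes also match other transcripts, and _a_at those that match variants of 1 gene.

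The data cover leaf tissue as labelled. The brightest probe set of rbcl, the plastid gene for the large subunit of Rubisco, lay between 14.12 and 14.46 on all 18 arrays, and OEE1, a protein of photosystem II, between 11.94 and 13.44. The leaf markers were not uniform. Of 28 rbcl probe sets, 8 were above 4.5 on all arrays and 15 were under it on all arrays. Of 2 probe sets for petC, also taken as a leaf marker, 1 was above it and 1 under it on all arrays. The brightest gliadin probe set, a seed storage protein, lay between 3.58 and 5.15, and 7 of 8 gliadin probe sets were under 4.5 on all arrays. One probe set for low molecular weight glutenin was above that level on all arrays, at 5.85 to 7.0. The arrays fell into 2 bands by the level of the BioC hybridization controls, 8 arrays between 8.77 and 9.66 and 10 between 5.67 and 7.28. The upper band held replicate 1 of each group except TQ27, whose replicate 2 was in it, and except Allo-AT5 S5, which had both arrays in the lower band. The 18S rRNA probe set stood at 11.41 on replicate 2 of TQ27 and at 5.04 to 7.79 on the other 17 arrays.

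The score of the 60 probe sets ran from 2.71, or 6.53-fold, for Ta_30321.1.S1_at to 0.87, or 1.83-fold, for Ta_9528.1.A1_at. Its median was 1.08, against -0.14 over all eligible probe sets, and 35 of the 60 had a score of at least 1. The last inside were Ta_23704.1.S1_s_at with 0.89, Ta_5911.1.S1_at with 0.88 and Ta_9528.1.A1_at with 0.87. The first outside were Ta_8356.1.S1_at with 0.87, Ta_22789.1.S1_at with 0.86 and TaAffx_13704.2.A1_at with 0.86. The scores thus passed through the boundary without a gap.

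Allo-AT5 minus MPV5 had a median of -1.26 over the 60 and a range of -4.00 to -0.87, against a median of -0.00 over eligible probe sets. Allo-AT9 minus MPV9 had a median of -1.16 and a range of -5.03 to -0.89, against 0.02. A difference of -1 or lower was found for 45 of the 60 in Allo-AT5 and for 43 in Allo-AT9, against 247 and 208 of the 22458 eligible probe sets. In Allo-AT5, S5 was below the mixture for 58 of 60 (53.3% of eligible probe sets) and S4 for 55 of 60 (47.1%). In Allo-AT9, S5 was below it for 59 of 60 (46.9%) and S4 for 60 of 60 (48.4%). These counts are largely fixed by the rule, which used the mean of the same arrays. From S4 alone 35 of the 60 were chosen again, and from S5 alone 37. The medians by generation were -1.32 at S5 and -1.25 at S4 in Allo-AT5, and -1.31 at S5 and -1.19 at S4 in Allo-AT9.

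**Figure D1:**
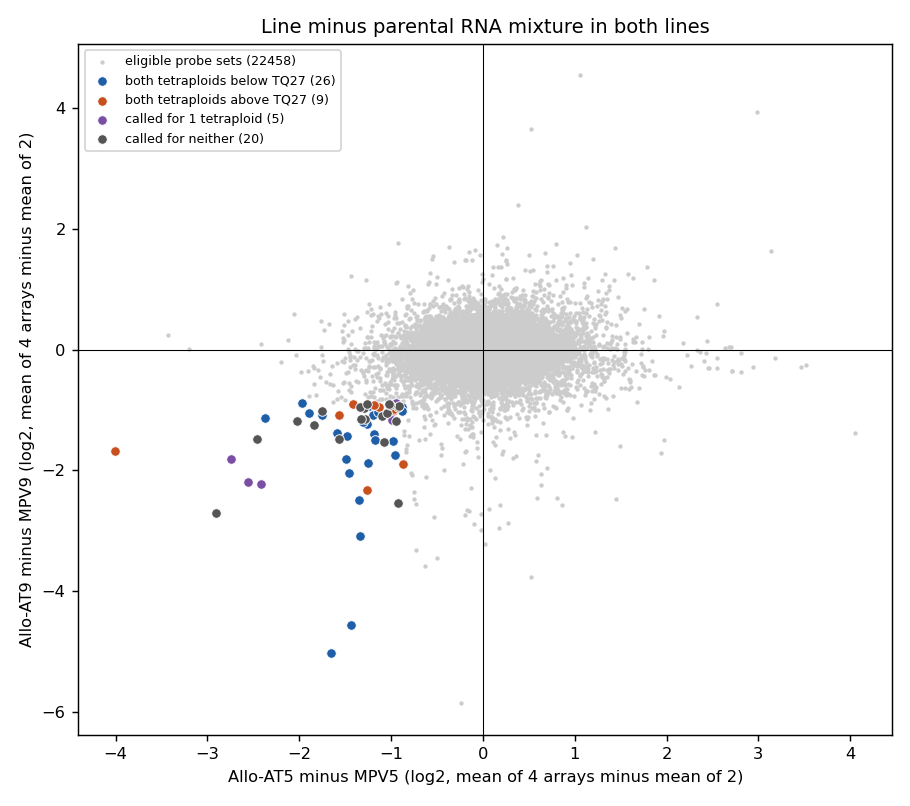
Allo-AT5 minus MPV5 on the horizontal axis against Allo-AT9 minus MPV9 on the vertical axis, both in log2 units, each point 1 probe set. Grey points are the 22458 eligible probe sets and coloured points the 60, which fill the lower left corner by construction, from -0.87 to -4.00 across and from -0.89 to -5.03 down.

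In every group, the parents included, replicates lay further apart for these 60 than for eligible probe sets at large. The rule had used the line and mixture arrays. All 4 arrays of Allo-AT5 lay below both MPV5 arrays for 33 of the 60 (5.15% of eligible probe sets), all 4 of Allo-AT9 below both MPV9 arrays for 32 (4.93%), and both held for 23 (0.485%). The remaining 37 overlapped with the mixture in at least 1 line. The 2 MPV9 arrays differed by a median of 1.12 log2 units over the 60, against 0.31 over eligible probe sets, and the 2 MPV5 arrays by 0.92, against 0.50. The arrays of Allo-AT5 S5 were the closest, with a median difference of 0.24 over the 60, against 0.13. The parents gave 1.03 against 0.64 in TTR04, 0.87 against 0.32 in TTH01 and 0.53 against 0.37 in TQ27. The deviations of replicate 1 from replicate 2 correlated over the 60 between MPV5 and TTR04 (Pearson's r = 0.64), between MPV9 and TTH01 (r = 0.75) and between MPV5 and MPV9 (r = 0.68), against 0.81, 0.67 and 0.44 over all 61115 probe sets. With the other parent, TQ27, the correlation was -0.27 for MPV5 and -0.35 for MPV9, against -0.14 and -0.22. These are correlations across probe sets, which are not independent, and replicates 1 and 2 of these groups lie in different spike-in bands. Whether replicate 1 of a mixture was made from the RNA of replicate 1 of its parents is not given in the sources used here.

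The median level of the 60 was 5.88 in Allo-AT5 S5, 6.24 in Allo-AT5 S4 and 7.45 in MPV5. It was 5.89 in Allo-AT9 S5, 5.62 in Allo-AT9 S4 and 7.11 in MPV9. The parents stood at 5.72 in TTR04, 5.84 in TTH01 and 7.5 in TQ27, so both tetraploids were near the lines and the goat grass near the mixtures. Several of the 60 were at the lower end of what the array reads. Both arrays were under 4.5 for 8 of the 60 in Allo-AT5 S5, 4 in Allo-AT5 S4, 15 in Allo-AT9 S5 and 14 in Allo-AT9 S4, against 0 in MPV5 and MPV9, where the rule required the level. All 4 arrays of Allo-AT9 were under it for 12 probe sets and all 4 of Allo-AT5 for 2, Ta_8868.1.A1_at and TaAffx_132249.1.S1_at, both named here after their values were seen. As these are pools of whole leaf RNA, fewer cells that express a transcript and less of it per cell cannot be told apart.

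**Figure D2:**
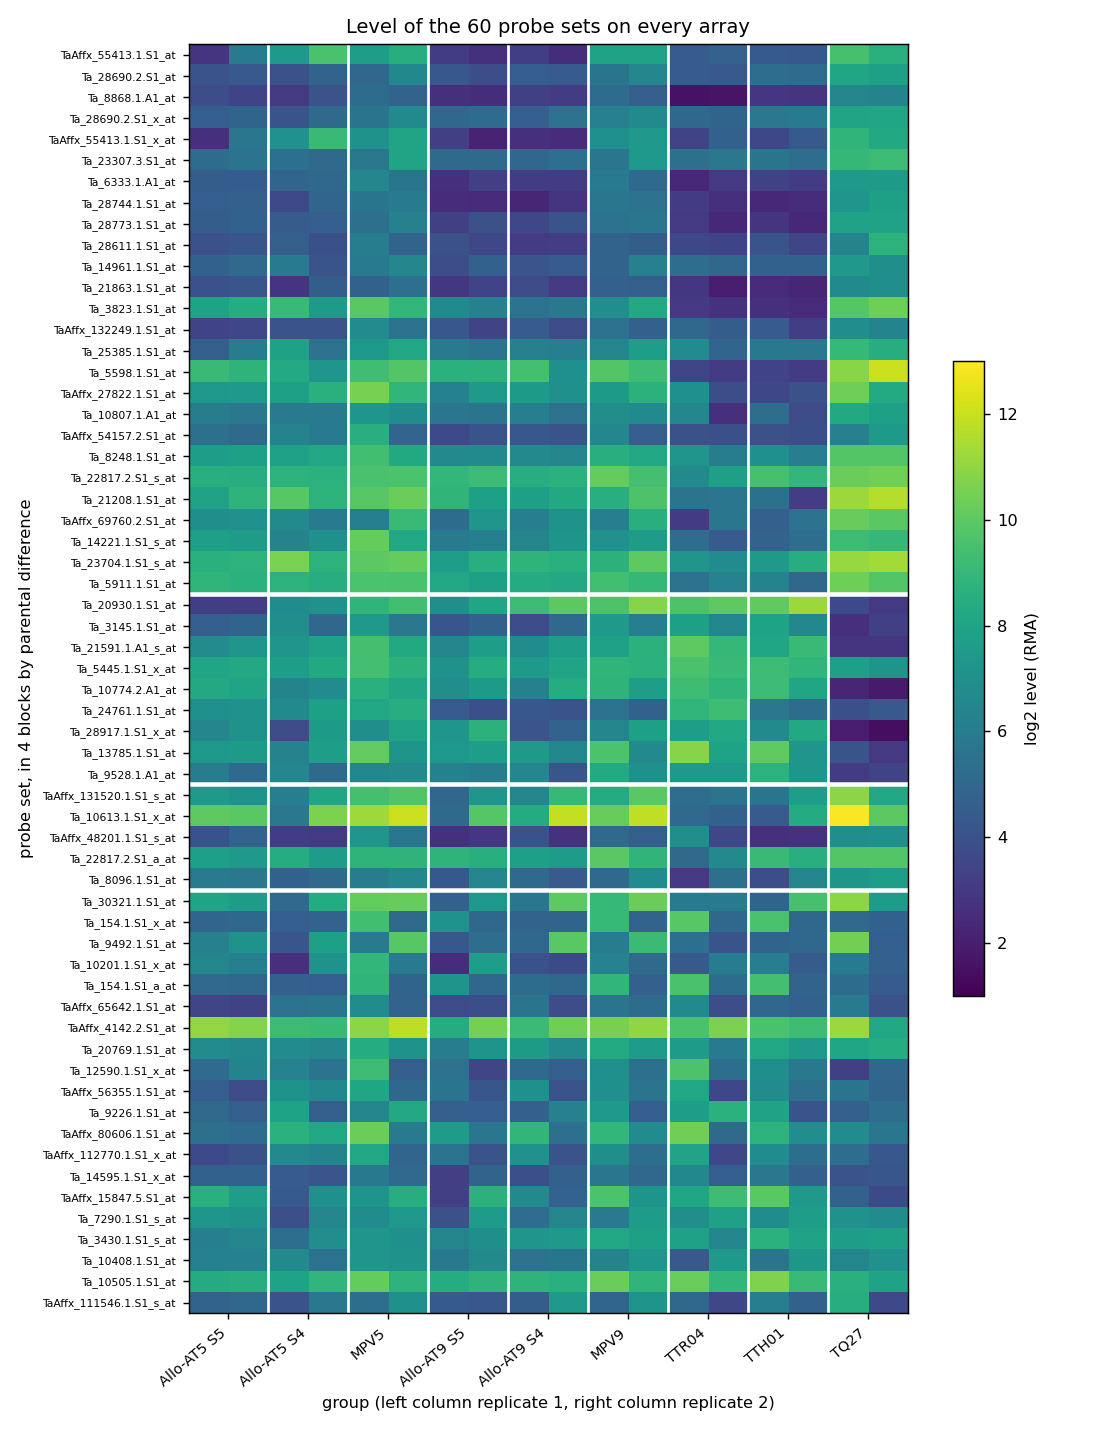
Log2 level of the 60 probe sets (rows) on the 18 arrays (columns, 2 per group, replicate 1 left), with rows in 4 blocks by parental difference: 26 lower in both tetraploids than in TQ27, 9 higher in both, 5 called for 1 tetraploid and 20 called for neither. In the first block the TQ27 columns are bright and the tetraploid columns dark, in the second block the reverse, and in the last block single columns of a group stand apart from their partner.

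In which parent the signal was higher was asked on the parents' own arrays, which the rule did not use directly. A higher signal does not show which parent supplied the transcript, as 1 probe set can bind RNA of the parents with unequal strength. The comparison of TTR04 with TQ27 and that of TTH01 with TQ27 share the TQ27 arrays, and the mixtures hold RNA of the same parents. The rule favoured high mixture arrays. The parental counts and p-values are therefore not independent of the choice of the 60 and are given as a description. TTR04 was lower than TQ27 for 30 of the 60 (8.29% of all probe sets tested, 16.7% of the eligible) and higher for 9 (7.72%, 17.0%), by limma with p adjusted over 61115 probe sets by Benjamini-Hochberg and an adjusted p under 0.05. The median difference was -2.43 log2 units over the 60, against -0.06 over eligible probe sets, with a range of -8.13 to 6.99 and a median standard error (SE) of 0.75. With 2 arrays in every group, the SE of a probe set is the same in all comparisons of 2 groups, and is given once where both tetraploids are compared with TQ27. TTH01 was lower than TQ27 for 27 of the 60 (7.53%, 14.6%) and higher for 9 (8.42%, 17.7%), with a median of -2.12, against -0.03, and a range of -8.21 to 7.27. An unadjusted p under 0.05 was found for 44 of the 60 (21.7% of all probe sets) and 41 (21.3%). At the level of single probe sets, 26 were lower than TQ27 in both tetraploids (12.6% of the eligible) and 9 were higher in both (14.9%). A further 4 were lower in TTR04 alone by this threshold (4.10%) and 1 in TTH01 alone (2.04%), and 20 passed in neither comparison (61.4%). The share lower in the tetraploid was therefore above that of the eligible probe sets in both comparisons, and the share that was higher was close to it.

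**Figure D3:**
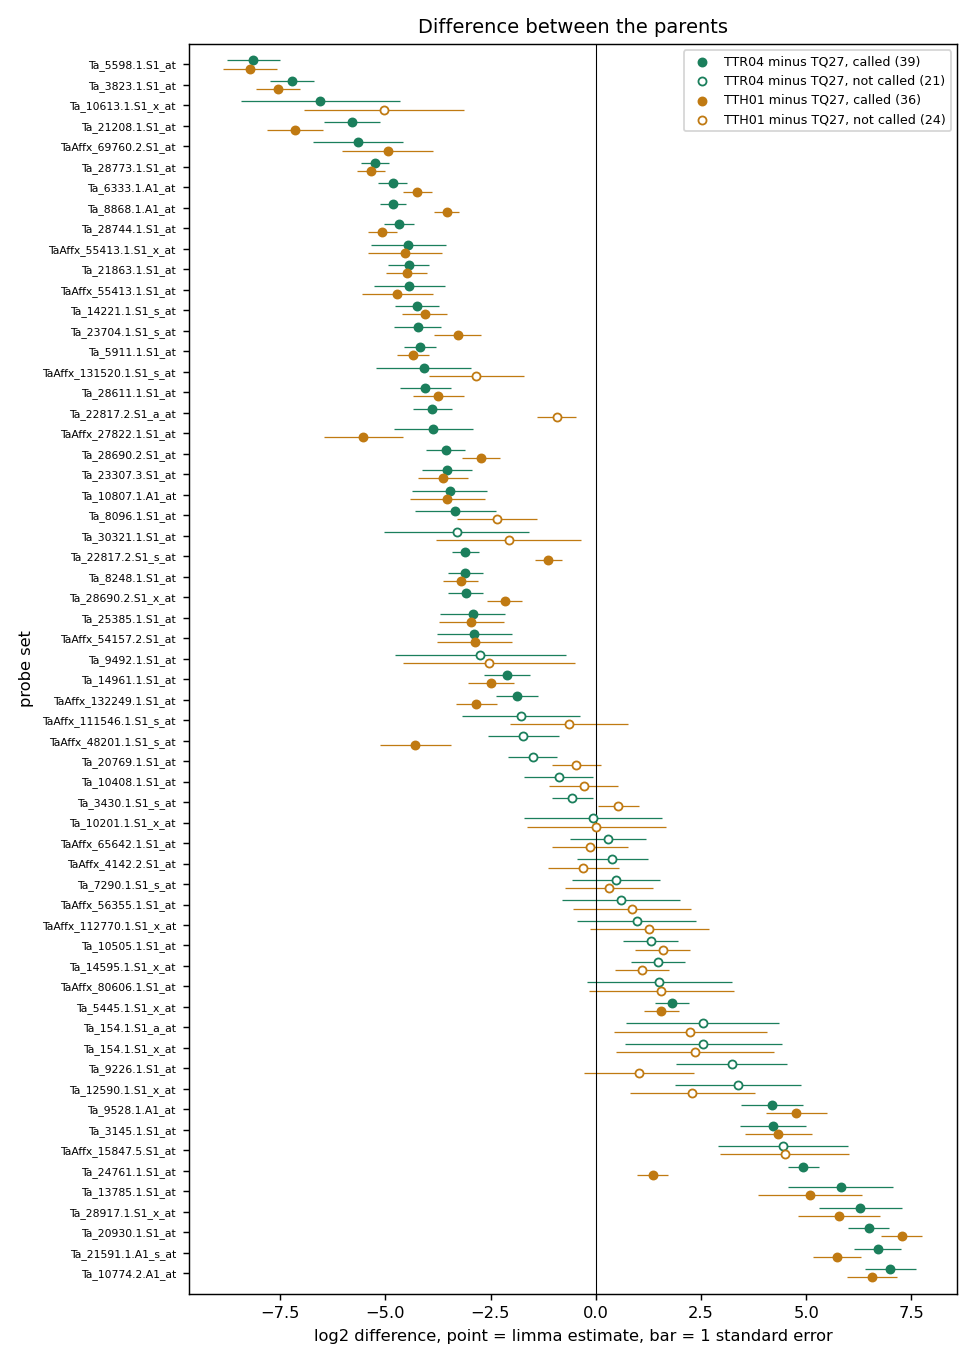
Log2 difference of TTR04 from TQ27 (green) and of TTH01 from TQ27 (orange) for each of the 60 probe sets, sorted by the first; points are limma estimates, bars 1 standard error, filled points an adjusted p under 0.05. Filled points lie on the left for 30 and 27 probe sets and on the right for 9 and 9, and the remaining points are open.

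Where the goat grass was the higher parent, the 26 probe sets had a median difference from TQ27 of -4.21 in TTR04 and -3.91 in TTH01, or of -3.40 and -3.24 with groups under the level for expressed set to it. Both lines were low in these: the median was -1.28 for Allo-AT5 minus MPV5 and -1.31 for Allo-AT9 minus MPV9. Both TTR04 arrays were under 4.5 for 10 of the 26 and both TTH01 arrays for 13, while no TQ27 pair was. MPV5 was nearer in log2 level to TQ27 than to TTR04 for 22 of the 26 and Allo-AT5 for 8. MPV9 was nearer to TQ27 than to TTH01 for 17 and Allo-AT9 for 4. The rule put each line below its mixture, so here a line could be nearer to TQ27 only where its mixture was. These counts are therefore a description. Allo-AT5 lay between its parents for 21 and below both for 5, and Allo-AT9 between for 17 and below both for 9. Of the 12 probe sets with all Allo-AT9 arrays under 4.5, 10 belonged here.

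Ta_5598.1.S1_at, for which the reference tables gave no gene, had the lowest difference from TQ27 for both tetraploids. It read 9.08 and 8.78 in Allo-AT5 S5, 8.35 and 7.25 in Allo-AT5 S4 and 9.34 and 9.77 in MPV5, and 8.68 and 8.73 in Allo-AT9 S5, 9.42 and 7.0 in Allo-AT9 S4 and 9.80 and 9.28 in MPV9. TTR04 stood at 3.53 and 3.09 and TTH01 at 3.39 and 3.07, against 10.86 and 12.02 in TQ27. All tetraploid arrays were thus under the level for expressed, both lines stood well above them, and a single array of Allo-AT9 S4 reached into the range of MPV9. The fitted difference from TQ27 was -8.13 for TTR04 (SE 0.63, adjusted p = 1.59e-06 by limma) and -8.21 for TTH01 (SE 0.63, adjusted p = 1.38e-06). Set against the level of 4.5 in place of the dim arrays, TQ27 was higher by at least 6.90 log2 units.

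Ta_3823.1.S1_at was of the same kind. It read 7.98 and 8.41 in Allo-AT5 S5, 9.10 and 7.53 in Allo-AT5 S4 and 9.93 and 8.93 in MPV5. It read 6.71 and 6.23 in Allo-AT9 S5, 5.49 and 5.80 in Allo-AT9 S4 and 6.90 and 8.23 in MPV9. The parents read 3.00 and 2.72 in TTR04 and 2.65 and 2.44 in TTH01, against 9.81 and 10.36 in TQ27. The Allo-AT9 arrays were all below those of MPV9 and below those of Allo-AT5. TTR04 differed from TQ27 by -7.22 (SE 0.52, adjusted p = 8.58e-07) and TTH01 by -7.54 (adjusted p = 5.59e-07), with a bound of at least 5.55 log2 units for both.

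Ta_21208.1.S1_at was above the level for expressed on both TTR04 arrays, at 5.61 and 5.69, and on 1 TTH01 array, at 5.43 and 3.16, against 11.21 and 11.68 in TQ27. The differences were -5.79 (SE 0.66, adjusted p = 3.9e-05) and -7.14 (adjusted p = 6.32e-06). The lines read 7.92 and 8.78 in Allo-AT5 S5 and 9.90 and 8.78 in Allo-AT5 S4 against 9.87 and 10.30 in MPV5, and 8.83 and 7.82 in Allo-AT9 S5 and 7.81 and 8.28 in Allo-AT9 S4 against 8.57 and 9.67 in MPV9. In each line 1 array overlapped with the mixture.

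TaAffx_27822.1.S1_at showed an uneven tetraploid parent. TTR04 read 7.04 and 3.90 and TTH01 3.62 and 3.99, against 10.34 and 8.32 in TQ27. TTH01 differed from TQ27 by -5.52 (SE 0.94, adjusted p = 0.000913, a bound of at least 4.79) and TTR04 by -3.86 (adjusted p = 0.0109). The TTR04 call was lost without replicate 2 of TTR04 (-2.29, adjusted p = 0.0835) and without replicate 1 of TQ27 (-2.84, adjusted p = 0.0984). Allo-AT5 read 7.38 and 7.51 at S5 and 7.80 and 8.61 at S4 against 10.53 and 8.91 in MPV5, with no overlap. Allo-AT9 read 6.26 and 7.49 at S5 and 7.54 and 7.01 at S4 against 7.53 and 8.72 in MPV9, with 1 array at the height of the lower mixture array.

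TaAffx_55413.1.S1_at carried the lowest line value of all 60, -5.03 for Allo-AT9 minus MPV9. Allo-AT9 read 3.14 and 2.59 at S5 and 3.22 and 2.59 at S4, against 7.91 and 7.91 in MPV9. Allo-AT5 read 2.78 and 5.96 at S5 and 7.48 and 9.56 at S4, against 7.70 and 8.5 in MPV5. All Allo-AT9 arrays were therefore under the level for expressed, while Allo-AT5 was there only on 1 array of S5 and at S4 overlapped with MPV5. The parents read 4.49 and 4.78 in TTR04 and 4.42 and 4.29 in TTH01, against 9.52 and 8.62 in TQ27, with differences of -4.43 (SE 0.84, adjusted p = 0.00219) and -4.71 (adjusted p = 0.00138) and a bound of at least 4.53 for TTH01.

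A further probe set for the same transcript, TaAffx_55413.1.S1_x_at, had the same course. It read 3.30 and 2.13 in Allo-AT9 S5 and 2.61 and 2.54 in Allo-AT9 S4 against 7.01 and 7.39 in MPV9, and 2.63 and 5.69 in Allo-AT5 S5 and 7.08 and 9.13 in Allo-AT5 S4 against 7.12 and 8.01 in MPV5. The parents read 3.46 and 4.73 in TTR04 and 3.62 and 4.41 in TTH01, against 8.83 and 8.27 in TQ27. Probe sets of 1 stem can share probes and are not independent measurements.

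Ta_28690.2.S1_at was low in every line array, with 4.06 and 4.35 in Allo-AT5 S5, 3.99 and 4.84 in Allo-AT5 S4, 4.24 and 3.85 in Allo-AT9 S5 and 4.58 and 4.46 in Allo-AT9 S4. MPV5 read 4.97 and 6.62 and MPV9 5.66 and 6.54. The parents read 4.48 and 4.33 in TTR04 and 5.29 and 5.20 in TTH01, against 8.11 and 7.83 in TQ27. Both lines lay below their mixtures without overlap, at about the level of the tetraploids or under it. The difference from TQ27 was -3.56 in TTR04 (SE 0.46, adjusted p = 0.000102, a bound of at least 3.43) and -2.72 in TTH01 (adjusted p = 0.00085).

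The partner Ta_28690.2.S1_x_at, which the study's supplement lists under the ontology term membrane, read 4.59 and 4.85 in Allo-AT5 S5 and 4.12 and 5.17 in Allo-AT5 S4 against 5.60 and 6.73 in MPV5. It read 4.94 and 5.21 in Allo-AT9 S5 and 4.57 and 5.46 in Allo-AT9 S4 against 6.21 and 6.77 in MPV9. The parents read 5.00 and 4.89 in TTR04 and 5.83 and 5.92 in TTH01, against 8.03 and 8.04 in TQ27. The pattern of the first probe set was thus repeated at a slightly higher level.

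The members of this group with a name elsewhere were few. Ta_25385.1.S1_at, listed in the supplement under mitochondrion, read 4.63 and 6.08 in Allo-AT5 S5 and 7.86 and 5.51 in Allo-AT5 S4 against 7.40 and 8.15 in MPV5. It read 6.0 and 5.55 in Allo-AT9 S5 and 6.23 and 6.19 in Allo-AT9 S4 against 6.44 and 7.71 in MPV9, where the groups did not overlap. The parents read 6.80 and 4.90 in TTR04 and 5.84 and 5.78 in TTH01, against 9.06 and 8.47 in TQ27. The differences of -2.92 in TTR04 (SE 0.77, adjusted p = 0.018) and -2.95 in TTH01 (adjusted p = 0.0167) passed. Each was lost when either TQ27 array was left out, with adjusted p between 0.0511 and 0.0932, that of TTR04 also without its replicate 2 (adjusted p = 0.126) and that of TTH01 without either of its own arrays (adjusted p = 0.0752 and 0.0752).

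Ta_10807.1.A1_at, the third of the 60 with an entry in the supplement, read 6.06 and 5.81 in Allo-AT5 S5 and 5.93 and 5.95 in Allo-AT5 S4 against 7.30 and 6.85 in MPV5. It read 5.73 and 5.60 in Allo-AT9 S5 and 6.19 and 5.52 in Allo-AT9 S4 against 6.91 and 6.68 in MPV9. All 8 line arrays lay within a narrow band below all 4 mixture arrays. The tetraploid replicates were far apart, at 6.54 and 2.65 in TTR04 and 5.32 and 3.75 in TTH01, against 8.30 and 7.83 in TQ27. TTR04 differed by -3.47 (SE 0.89, adjusted p = 0.0152) and TTH01 by -3.53 (adjusted p = 0.0137), and both calls were lost when either TQ27 array was left out, with adjusted p between 0.0515 and 0.0757, as well as without replicate 2 of TTR04 (adjusted p = 0.0538) and replicate 2 of TTH01 (adjusted p = 0.124).

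Ta_23704.1.S1_s_at matched LOC543002, a protein-coding gene on chromosome 1D from 66742065 to 66743371 in the build IWGSC CS RefSeq v2.1 of Chinese Spring wheat, with no product name in the table used. It read 8.60 and 8.78 in Allo-AT5 S5 and 10.60 and 8.74 in Allo-AT5 S4 against 9.98 and 10.16 in MPV5, and 7.73 and 8.54 in Allo-AT9 S5 and 8.79 and 8.62 in Allo-AT9 S4 against 8.73 and 10.00 in MPV9. One S4 array of each line overlapped with its mixture. The parents read 7.26 and 6.77 in TTR04 and 7.47 and 8.46 in TTH01, against 11.16 and 11.34 in TQ27, with differences of -4.23 (SE 0.56, adjusted p = 0.00013) and -3.28 (adjusted p = 0.000944).

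Ta_5911.1.S1_at, at the lower end of the scores, had close replicates in the lines and mixtures and less close ones in the parents. It read 8.85 and 8.66 in Allo-AT5 S5 and 8.75 and 8.5 in Allo-AT5 S4 against 9.59 and 9.55 in MPV5, and 8.15 and 7.84 in Allo-AT9 S5 and 8.37 and 8.26 in Allo-AT9 S4 against 9.36 and 8.99 in MPV9. Neither line overlapped with its mixture. TTR04 read 5.47 and 6.30 and TTH01 6.37 and 5.05, against 10.33 and 9.80 in TQ27, with differences of -4.18 (SE 0.38, adjusted p = 5.61e-06) and -4.35 (adjusted p = 3.89e-06).

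**Figure D4:**
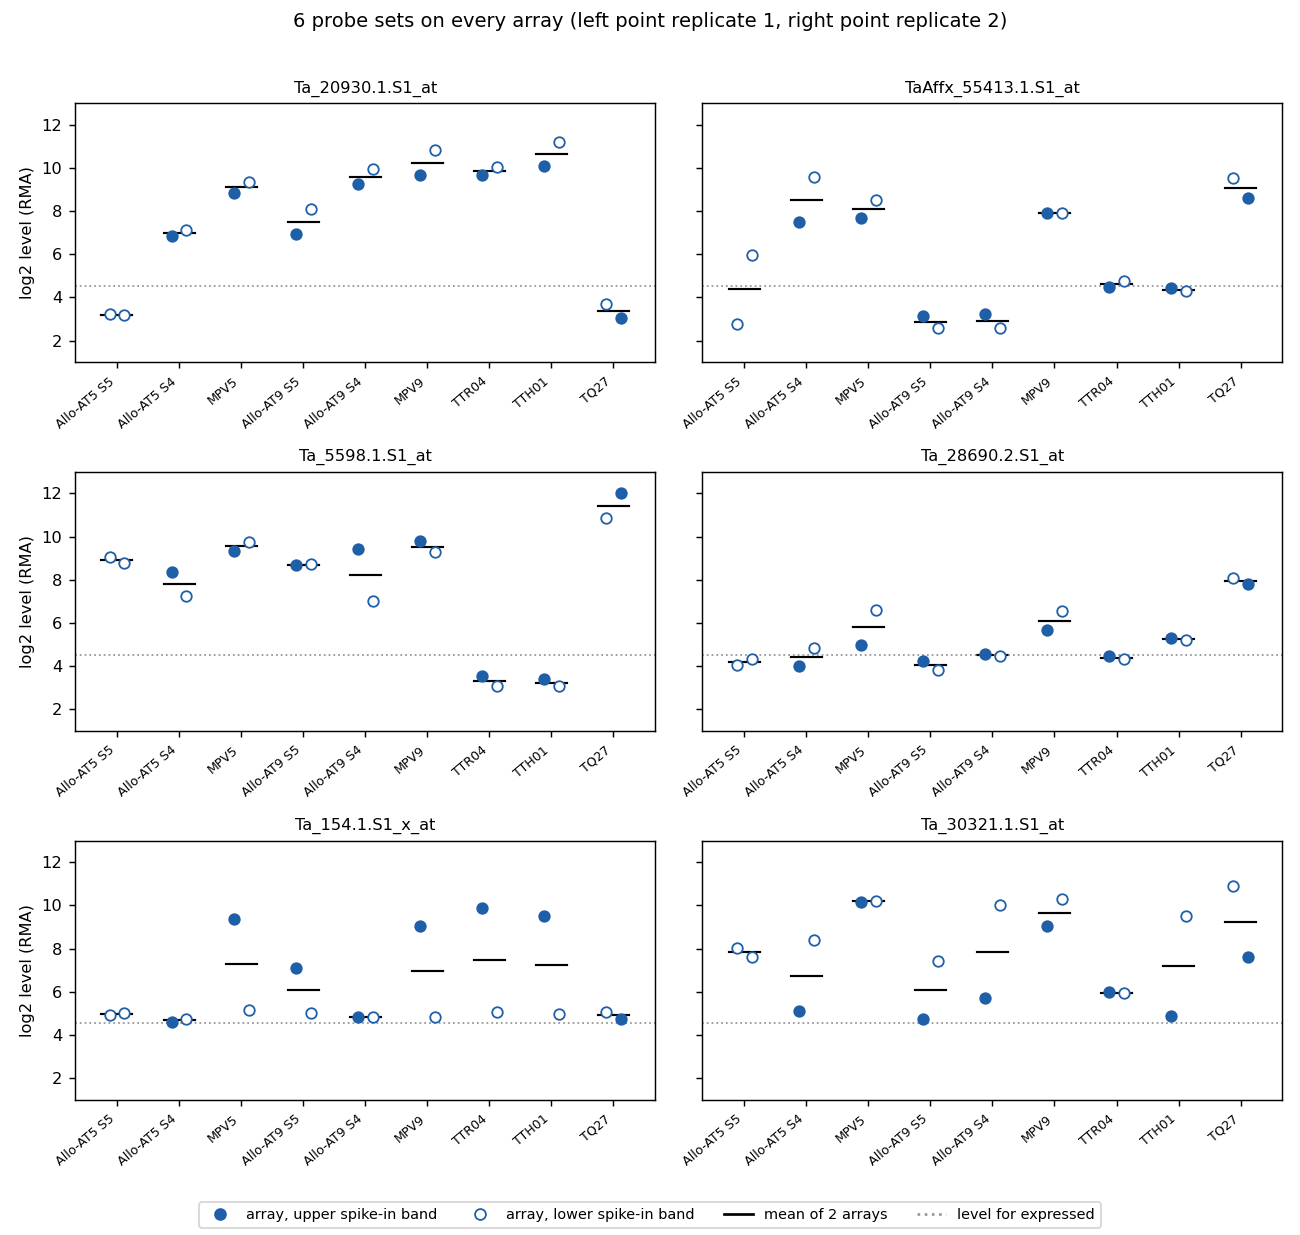
Log2 level of 6 probe sets in the 9 groups; points are arrays (replicate 1 left, filled in the upper spike-in band, open in the lower), bars the mean of 2 arrays, the dotted line the level of 4.5. Ta_5598.1.S1_at and TaAffx_55413.1.S1_at are high in TQ27, Ta_20930.1.S1_at is high in the tetraploids, and in Ta_154.1.S1_x_at 5 filled points between 7.11 and 9.88 stand above all the rest.

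Where the tetraploid was the higher parent, the 9 probe sets had a median difference from TQ27 of 5.82 in TTR04 and 5.09 in TTH01, or of 4.53 and 3.50 with TQ27 set to the level for expressed where it was under it. Allo-AT5 minus MPV5 had a median of -1.18 and Allo-AT9 minus MPV9 of -1.02. Both lines lay between the parents for all 9, and TQ27 had both arrays under 4.5 for 8 of them. Neither mixture was nearer to TQ27 in any of the 9, while Allo-AT5 was nearer to TQ27 for 2 and Allo-AT9 for 3. This too is a description, since the rule put each line below its mixture, and so nearer to the lower parent TQ27. The mixtures here already hold 2 parts of the higher parent's RNA.

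Ta_20930.1.S1_at had the lowest value of Allo-AT5 minus MPV5 among the 60, -4.00. It read 3.22 and 3.20 in Allo-AT5 S5 and 6.84 and 7.12 in Allo-AT5 S4, against 8.84 and 9.35 in MPV5. It read 6.92 and 8.10 in Allo-AT9 S5 and 9.23 and 9.96 in Allo-AT9 S4, against 9.67 and 10.81 in MPV9. The parents read 9.66 and 10.04 in TTR04 and 10.08 and 11.19 in TTH01, against 3.71 and 3.03 in TQ27. Allo-AT5 S5 thus stood at the level of the goat grass, under the level for expressed, and Allo-AT9 S4 overlapped with MPV9. The difference from TQ27 was 6.48 in TTR04 (SE 0.49, adjusted p = 1.28e-06) and 7.27 in TTH01 (adjusted p = 4.73e-07), with bounds of at least 5.31 and 6.10 log2 units.

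Ta_10774.2.A1_at, Ta_21591.1.A1_s_at and Ta_28917.1.S1_x_at were likewise under the level for expressed on both TQ27 arrays. Ta_10774.2.A1_at read 9.27 and 8.87 in TTR04 and 9.23 and 8.04 in TTH01, against 2.27 and 1.88 in TQ27, with a difference of 6.99 for TTR04 (SE 0.60, adjusted p = 3.75e-06) and 6.56 for TTH01 (adjusted p = 6.19e-06). As TQ27 was under the level, the bounds were at least 4.53 and 4.10 log2 units. Its lines read 8.25 and 8.02 in Allo-AT5 S5 and 6.42 and 6.78 in Allo-AT5 S4 against 8.63 and 8.04 in MPV5, and 6.91 and 7.53 in Allo-AT9 S5 and 6.26 and 8.41 in Allo-AT9 S4 against 8.79 and 7.73 in MPV9. At S5 Allo-AT5 was close to the mixture, and the low S4 arrays carried the mean.

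Ta_21591.1.A1_s_at read 6.79 and 7.31 in Allo-AT5 S5 and 7.25 and 7.88 in Allo-AT5 S4 against 9.48 and 8.28 in MPV5, and 6.51 and 7.72 in Allo-AT9 S5 and 6.84 and 7.70 in Allo-AT9 S4 against 7.85 and 8.69 in MPV9. Both lines lay below their mixtures without overlap. The parents read 10.04 and 8.99 in TTR04 and 8.03 and 9.07 in TTH01, against 2.81 and 2.83 in TQ27, with differences of 6.70 (SE 0.56, adjusted p = 3.02e-06) and 5.73 (adjusted p = 1.08e-05) and bounds of at least 4.98 and 4.01.

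Ta_28917.1.S1_x_at read 6.54 and 7.15 in Allo-AT5 S5 and 3.73 and 7.55 in Allo-AT5 S4 against 6.96 and 7.90 in MPV5, and 7.26 and 8.69 in Allo-AT9 S5 and 4.18 and 4.77 in Allo-AT9 S4 against 6.47 and 7.82 in MPV9. The Allo-AT9 S5 arrays were at the height of MPV9, so S4 alone set the mean below it. The parents read 7.73 and 8.19 in TTR04 and 6.68 and 8.22 in TTH01, against 1.90 and 1.45 in TQ27, with differences of 6.28 (SE 0.98, adjusted p = 0.000504) and 5.78 (adjusted p = 0.000949) and bounds of at least 3.42 and 2.91.

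Ta_13785.1.S1_at matched LOC100125738, a protein-coding gene on chromosome 4A from 440895082 to 440896323 in the same build, again with no product name. It read 7.38 and 7.55 in Allo-AT5 S5 and 6.33 and 7.69 in Allo-AT5 S4 against 10.10 and 7.20 in MPV5, and 7.42 and 7.73 in Allo-AT9 S5 and 7.42 and 6.49 in Allo-AT9 S4 against 9.58 and 6.75 in MPV9. In both mixtures only the array of the upper spike-in band was above all arrays of the line. The tetraploid parents were split in the same way, at 10.82 and 7.96 in TTR04 and 10.06 and 7.26 in TTH01, against 4.14 and 3.01 in TQ27. The differences of 5.82 in TTR04 (SE 1.24, adjusted p = 0.00484) and 5.09 in TTH01 (adjusted p = 0.0112) passed, with bounds of at least 4.85 and 4.12. The TTR04 call was lost without replicate 1 of TTR04 (4.38, adjusted p = 0.0568), and the TTH01 call without replicate 1 of TTH01 (3.69, adjusted p = 0.128) and without replicate 2 of TQ27 (4.52, adjusted p = 0.0915).

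Ta_9528.1.A1_at, the last of the 60, read 6.04 and 5.09 in Allo-AT5 S5 and 6.56 and 5.14 in Allo-AT5 S4 against 6.51 and 6.64 in MPV5, and 6.26 and 6.02 in Allo-AT9 S5 and 6.57 and 4.22 in Allo-AT9 S4 against 8.32 and 7.01 in MPV9. It was without overlap in Allo-AT9 only. The parents read 7.44 and 7.47 in TTR04 and 8.75 and 7.33 in TTH01, against 3.06 and 3.47 in TQ27, with differences of 4.19 (SE 0.73, adjusted p = 0.00117) and 4.77 (adjusted p = 0.000426) and bounds of at least 2.91 and 3.50.

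Differences between the 2 tetraploid parents were rare. Their shares among the 60 (1.67% higher and 3.33% lower in TTR04) rest on too few probe sets to be read as above those at large. Both lower probe sets come from 1 stem. TTR04 was higher than TTH01 for 1 of the 60 (0.548% of all probe sets, 0.512% of the eligible) and lower for 2 (0.699%, 0.699%), and 5 had an unadjusted p under 0.05 (5.89%). Ta_24761.1.S1_at read 8.88 and 9.26 in TTR04, against 5.74 and 5.26 in TTH01, a difference of 3.57 (SE 0.36, adjusted p = 0.000156). The same step ran through the lines and mixtures: Allo-AT5 read 7.04 and 7.16 at S5 and 6.73 and 7.83 at S4 against 8.17 and 8.47 in MPV5, while Allo-AT9 read 4.44 and 3.94 at S5 and 4.24 and 4.05 at S4 against 5.50 and 4.73 in MPV9. TQ27 read 3.92 and 4.36. All Allo-AT9 arrays were thus near the goat grass and under the level for expressed.

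Both probe sets of the stem Ta_22817.2 were lower in TTR04. Ta_22817.2.S1_a_at read 5.16 and 6.66 in TTR04, against 9.15 and 8.57 in TTH01, a difference of -2.95 (SE 0.46, adjusted p = 0.00465) that was lost without replicate 1 of TTH01 (-2.66, adjusted p = 0.0682), and 9.77 and 9.81 in TQ27. It read 7.79 and 7.46 in Allo-AT5 S5 and 8.45 and 7.61 in Allo-AT5 S4 against 8.81 and 8.81 in MPV5, and 8.82 and 8.59 in Allo-AT9 S5 and 7.79 and 7.64 in Allo-AT9 S4 against 9.91 and 8.85 in MPV9. The lines lay below the mixtures on every array.

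Ta_22817.2.S1_s_at gave the same order. TTR04 read 6.72 and 7.81, against 9.5 and 8.96 in TTH01, a difference of -1.97 (SE 0.32, adjusted p = 0.00702), and TQ27 read 10.29 and 10.44. The call was lost without replicate 1 of TTH01 (-1.69, adjusted p = 0.102) and without replicate 1 of TTR04 (-1.42, adjusted p = 0.0512). All 3 calls between the tetraploids were lost in a fit of these 2 groups alone, with adjusted p of 0.0672 for Ta_24761.1.S1_at, 0.396 for Ta_22817.2.S1_a_at and 0.534 for Ta_22817.2.S1_s_at. Allo-AT5 read 8.55 and 8.49 at S5 and 8.74 and 8.68 at S4 against 9.53 and 9.58 in MPV5, and Allo-AT9 8.96 and 9.23 at S5 and 8.5 and 8.66 at S4 against 10.15 and 9.46 in MPV9, again with no overlap.

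TaAffx_48201.1.S1_s_at passed for TTH01 alone. TTH01 read 2.65 and 2.71, against 6.91 and 7.03 in TQ27, a difference of -4.29 (SE 0.85, adjusted p = 0.00281), and the bound was at least 2.43 log2 units. TTR04 read 6.96 and 3.53, and its difference of -1.72 did not pass (SE 0.85, adjusted p = 0.201) but did so without replicate 1 of TTR04 (-3.43, adjusted p = 0.00211). The lines read 4.03 and 4.81 in Allo-AT5 S5 and 3.15 and 3.01 in Allo-AT5 S4 against 7.25 and 5.73 in MPV5, and 2.67 and 2.89 in Allo-AT9 S5 and 4.03 and 2.69 in Allo-AT9 S4 against 5.13 and 4.64 in MPV9. Neither line overlapped with its mixture, and 7 of the 8 line arrays were under the level for expressed.

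The 20 probe sets that passed in neither parental comparison included the highest score, while ranks 2 to 4 had passed for 1 tetraploid. Their median difference from TQ27 was 0.53 in TTR04 and 0.70 in TTH01. The mixture was above both of its parents for 10 of them in MPV5 and 11 in MPV9. Over all 60 this was so for 14 in MPV5 (9.07% of eligible probe sets) and 11 in MPV9 (5.99%), and in both mixtures for 9 (2.13%). In composition a mixture lies between its 2 sources, and why its reading was above both was not tested. Set against the 2:1 mean calculated from the parents' own arrays on the linear scale, both lines were lower for 55 of the 60 (45.7% of eligible probe sets), with a median of -1.10 in Allo-AT5 and -1.30 in Allo-AT9, against -0.09 and -0.09. The rule favoured low line arrays and high mixture arrays. These counts, and those of mixtures above both parents, are therefore largely set by the choice of the 60 and are a description.

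Ta_30321.1.S1_at, with the highest score, showed how far arrays of 1 group could part. It read 8.02 and 7.64 in Allo-AT5 S5 and 5.12 and 8.39 in Allo-AT5 S4, against 10.17 and 10.21 in MPV5. It read 4.74 and 7.41 in Allo-AT9 S5 and 5.69 and 10.02 in Allo-AT9 S4, against 9.05 and 10.29 in MPV9. The parents read 5.97 and 5.93 in TTR04 and 4.86 and 9.5 in TTH01, against 10.90 and 7.60 in TQ27. Allo-AT5 was below MPV5 on every array, while 1 array of Allo-AT9 S4 reached MPV9. The difference of TTR04 from TQ27 was -3.30 (SE 1.72, adjusted p = 0.230), and it passed with the band of the spike-in controls fitted as a block (adjusted p = 0.0341). That of TTH01 was -2.07 (SE 1.72, adjusted p = 0.488), and without replicate 1 of TTH01 it was 0.25.

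The next in rank, TaAffx_131520.1.S1_s_at and Ta_10613.1.S1_x_at, passed for TTR04 alone. TaAffx_131520.1.S1_s_at read 7.47 and 7.09 in Allo-AT5 S5 and 6.16 and 8.08 in Allo-AT5 S4 against 9.48 and 9.76 in MPV5, and 4.97 and 7.26 in Allo-AT9 S5 and 6.46 and 9.04 in Allo-AT9 S4 against 8.37 and 9.94 in MPV9. The parents read 5.29 and 5.60 in TTR04 and 5.67 and 7.71 in TTH01, against 10.91 and 8.15 in TQ27, with differences of -4.08 (SE 1.13, adjusted p = 0.0228) and -2.83 (adjusted p = 0.109). The TTR04 call was lost without either array of TTR04 or replicate 1 of TQ27, with adjusted p between 0.0554 and 0.180. The TTH01 difference passed without replicate 2 of TQ27 (-4.21, adjusted p = 0.0482) and with the band as a block (adjusted p = 0.00222).

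Ta_10613.1.S1_x_at read 10.01 and 9.93 in Allo-AT5 S5 and 5.78 and 10.62 in Allo-AT5 S4 against 11.22 and 12.06 in MPV5, and 5.15 and 9.84 in Allo-AT9 S5 and 8.37 and 11.92 in Allo-AT9 S4 against 10.20 and 11.84 in MPV9. The parents read 5.08 and 4.73 in TTR04 and 4.43 and 8.39 in TTH01, against 12.92 and 9.97 in TQ27, with differences of -6.54 (SE 1.90, adjusted p = 0.0291) and -5.03 (adjusted p = 0.0901). The TTR04 call was lost without either array of TTR04 or replicate 1 of TQ27, with adjusted p between 0.0837 and 0.172, and that of TTH01 passed with the band as a block (adjusted p = 0.00363). In each group of the lines with both bands, the upper-band array was the lower one.

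For Ta_154.1.S1_x_at every high value was an upper-band array, but in Allo-AT5 S4, Allo-AT9 S4 and TQ27 the upper-band array was the lower one. Allo-AT5 read 4.91 and 5.00 at S5 and 4.60 and 4.75 at S4, against 9.38 and 5.17 in MPV5. Allo-AT9 read 7.11 and 5.01 at S5 and 4.84 and 4.86 at S4, against 9.05 and 4.84 in MPV9. The parents read 9.88 and 5.06 in TTR04 and 9.53 and 4.99 in TTH01, against 5.09 and 4.74 in TQ27. The second replicate of both mixtures and both tetraploids was thus at the level of the lines. The differences from TQ27 were 2.56 in TTR04 (SE 1.87, adjusted p = 0.416) and 2.35 in TTH01 (adjusted p = 0.466).

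Ta_154.1.S1_a_at, of the same stem, read 5.08 and 5.04 in Allo-AT5 S5 and 4.70 and 4.59 in Allo-AT5 S4 against 8.87 and 4.88 in MPV5, and 7.20 and 5.00 in Allo-AT9 S5 and 5.25 and 5.05 in Allo-AT9 S4 against 8.91 and 4.70 in MPV9. The parents read 9.56 and 5.24 in TTR04 and 9.40 and 4.83 in TTH01, against 5.23 and 4.50 in TQ27. Here the second mixture arrays lay within or below the range of the lines.

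With group as a term, 8 of the 60 were higher in the lower spike-in band (4.53% of all probe sets) and 7 were lower in it (3.85%) by limma, with differences of 0.75 to 2.76 and of -0.61 to -2.42. Among eligible probe sets the shares were 8.53% and 9.13%. Ta_30321.1.S1_at (2.43), TaAffx_131520.1.S1_s_at (1.72), Ta_10613.1.S1_x_at (2.76), Ta_28917.1.S1_x_at (1.32) and Ta_20930.1.S1_at (0.75) were among the 8, and both probe sets of Ta_154 (-2.42 and -2.36) among the 7. The distances to the mixture within bands rest on the arrays the rule used and are a description; the part of the band in them was not tested. Allo-AT5 was below MPV5 for 54 of 60 in the upper band (1 line array, median -1.58) and for 54 of 60 in the lower (3 line arrays, median -1.03). Allo-AT9 was below MPV9 for 60 of 60 in the upper band (2 line arrays, median -1.44) and for 54 of 60 in the lower (2 line arrays, median -1.31). All 4 held for 46 of the 60 (6.22% of eligible probe sets), a count largely fixed by the choice of the 60.

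Between generations no probe set of the 60 passed the adjusted test. By limma, S5 against S4 gave 0 of 60 in Allo-AT5 and 0 of 60 in Allo-AT9, the contrast of generation by line gave 0 of 60, and over all 61115 probe sets each gave 0 calls (0%). At an unadjusted p under 0.05 the counts were 5 in Allo-AT5 (0.733% of all probe sets), 2 in Allo-AT9 (0.597%) and 4 for generation by line (0.956%). The median of S5 minus S4 was 0.02 over the 60 in Allo-AT5, against -0.05 over eligible probe sets, and -0.17 in Allo-AT9, against 0.01. The median absolute difference was 0.48 in Allo-AT5, against 0.21, and 0.48 in Allo-AT9, against 0.19. The rule used the same line arrays, and a low mean over S4 and S5 favours probe sets with 1 very low generation or array. Sizes and p-values between generations are therefore not independent of the choice of the 60 and are given as a description.

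**Figure D5:**
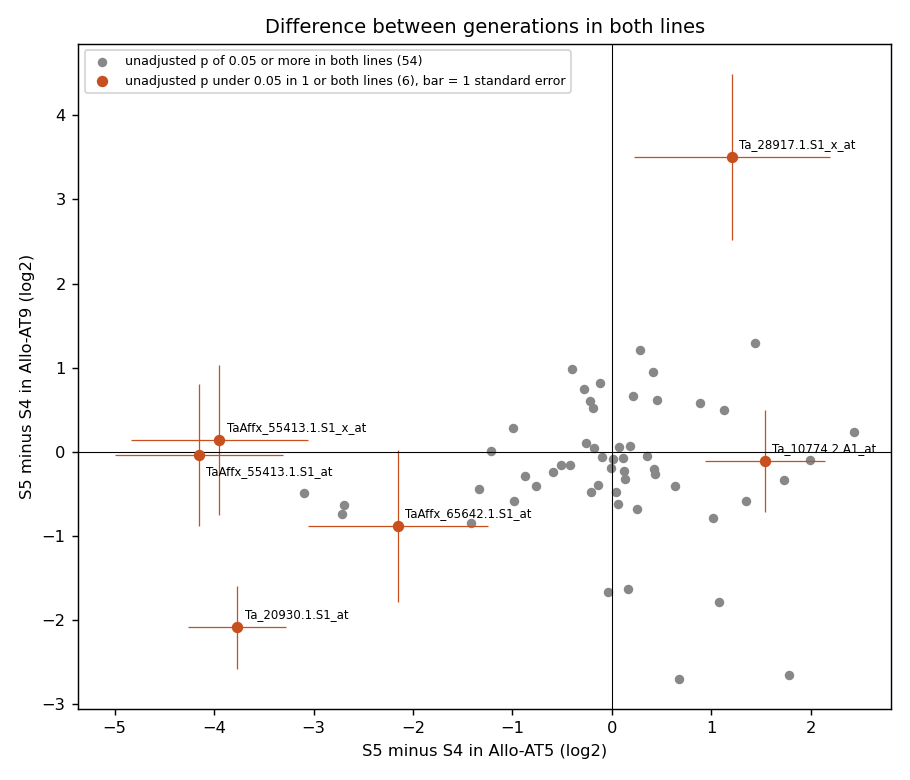
S5 minus S4 in Allo-AT5 (horizontal axis) against S5 minus S4 in Allo-AT9 (vertical axis), in log2 units, for the 60 probe sets; orange points have an unadjusted p under 0.05 in 1 or both lines and bars of 1 standard error. Ta_20930.1.S1_at lies low in both lines, at -3.77 and -2.08, and both probe sets of TaAffx_55413 lie far left at the 0 line of Allo-AT9.

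Ta_20930.1.S1_at had the smallest p in both lines. S5 minus S4 was -3.77 in Allo-AT5 (SE 0.49, unadjusted p = 6.08e-06, adjusted p = 0.124) and -2.08 in Allo-AT9 (SE 0.49, unadjusted p = 0.00118, adjusted p = 1.0). Both S5 arrays were below both S4 arrays in each line. In Allo-AT5 the difference passed with the replicate number as a block (adjusted p = 0.0243) and with the band of the spike-in controls as one (-4.14, adjusted p = 9.92e-05), and was the only one of all probe sets to do so in either fit. The difference between the lines, -1.68, had an unadjusted p under 0.05 and did not pass the adjusted test.

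TaAffx_55413.1.S1_at came next in Allo-AT5, with -4.15 (SE 0.84, unadjusted p = 0.000353, adjusted p = 1.0), and TaAffx_55413.1.S1_x_at with -3.95. In Allo-AT9 this transcript was under the level for expressed in both generations, and generation by line was -4.11 and -4.09. TaAffx_65642.1.S1_at, named here after its values were seen, read 3.53 and 3.35 in Allo-AT5 S5, against 5.54 and 5.64 in Allo-AT5 S4. Ta_10774.2.A1_at differed the other way, with 8.25 and 8.02 at S5 and 6.42 and 6.78 at S4. In Allo-AT9, Ta_28917.1.S1_x_at was the second by p, with 7.26 and 8.69 at S5, against 4.18 and 4.77 at S4, a difference of 3.50 (SE 0.98, unadjusted p = 0.00391, adjusted p = 1.0). These differences are single transcripts with 2 pools on each side.

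By name the 60 were an unannotated set. The 60 probe sets came from 56 transcript stems, 4 of which gave 2 probe sets each (Ta_154, Ta_22817, Ta_28690 and TaAffx_55413). By suffix 39 of the 60 were _at (64.6% of eligible probe sets), 2 _a_at (11.4%), 9 _s_at (7.01%) and 10 _x_at (17.1%). The reference tables gave a gene symbol for 2 of the 60 and for 730 of the 22458 eligible probe sets, and the study's supplement named 3 others, so 55 had neither. One of the 60, Ta_25385.1.S1_at, was listed as mitochondrial in the supplement. None was placed among plastid-encoded genes, transposons, ribosomal proteins or peroxidases by symbol or supplement, which with so few names says little about their function.

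Other probe sets of the same stems are given as a description. The stems held 59 further probe sets, of which 26 were eligible. Of these, 19 were below the mixture in both lines (24.8% of eligible probe sets were), with a median score of 0.16, against -0.14. They can share probes with the 60 and were scored on the same line and mixture arrays that the rule used. They are thus no independent sample of plants and no separate check of the 60.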

How the data were processed

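Leaf RNA of 9 groups was measured on 18 Affymetrix wheat arrays, 2 per group. According to its methods and the submitters' processing notes, the authors applied RMA to the raw arrays in R (limma) and deposited log2 levels per probe set; versions are not given in the sources used here. The deposited log2 values, from 1.37 to 14.46 with array medians of 4.00 to 4.11, were used unchanged. Neither raw arrays nor MAS5 flags were used here. In their place, a group counted as expressed when both arrays reached 4.5, and 2 groups were compared where at least 1 was expressed. Precision is limited by the 2 arrays per group.

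Of 61290 probe sets, 175 controls were left out. One linear model with the 9 groups was fitted in R 4.3.3 with limma 3.58.1 and empirical Bayes moderation (9 residual and 2.99 prior degrees of freedom), and p was adjusted by Benjamini-Hochberg over 61115 probe sets. TTR04 and TTH01 were each compared with TQ27 and with each other, S5 with S4 in each line, and that difference between the lines. "At least" bounds set a group with both arrays under 4.5 to that level. The procedure was tested on simulated data, and 0 columns were without a sample.

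The members, the level and the lists were chosen with earlier results of these data known. Named are the 8 highest and 3 lowest scores with the 3 just outside, members with a symbol or a name in the supplement, the 4 highest and 4 lowest differences of each tetraploid from TQ27, the 3 largest between the tetraploids, the 2 smallest p between generations in each line, and members that share a stem. Members outside this rule are marked as chosen later. Alternatives were other normalizations, filters and fits, each array left out, the replicate number or the spike-in band as a block, and other versions of the rule. Replicate numbers are those of the labels; deviations of same-numbered arrays correlated at -0.07 between TTR04 and TQ27, -0.15 between TTH01 and TQ27, 0.34 between TTR04 and TTH01, 0.07 between S5 and S4 of Allo-AT5 and 0.46 between those of Allo-AT9, over 61115 probe sets.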

Additional observations from a re-analysis of the deposited data

How the results depend on the processing

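By count, the parental comparisons were the steadiest results. With every alternative run, the count of the 60 called between TTR04 and TQ27 and between TTH01 and TQ27 stayed within 1.5 times 39 and 36; leaving out 1 array gave 31 (without replicate 1 of TQ27) to 39 and 31 (without replicate 2 of TQ27 or replicate 1 of TTH01) to 36. The band as a block gave 42 and 39 and the replicate block 39 and 38; with the numbers of TQ27 crossed, chosen after seeing the data, TTH01 gave 39. Between TTR04 and TTH01 the 3 calls became 0 in a separate fit of the groups compared and 5 at an unadjusted p, and leaving out 1 array gave 1 (without replicate 1 of TTH01) to 4. Between generations, 0 calls became 1 in Allo-AT5 with the replicate block and 1 with the band as a block, and at an unadjusted p 5 in Allo-AT5, 2 in Allo-AT9 and 4 for generation by line; leaving out 1 array gave 0 to 0 in all 3. Of the named results, the separate fit of the groups compared ended 7 calls and cyclic loess 1. With each array left out in turn, a call ended in 32 cases and was gained in 3, each case being 1 result without 1 array. The separate fit ended the calls of TTR04 against TQ27 for TaAffx_131520.1.S1_s_at, Ta_25385.1.S1_at, Ta_10807.1.A1_at and TaAffx_27822.1.S1_at (limma, adjusted p between 0.068 and 0.224). No call changed direction, but 2 differences of TTH01 from TQ27 that had not passed changed sign without replicate 1 of TTH01, that of Ta_30321.1.S1_at to 0.25 and that of Ta_154.1.S1_a_at to -0.04. Nothing in the labels says that a replicate number marks shared material; with it as a block the counts were 3 between TTR04 and TTH01, 0 between generations of Allo-AT9 and 0 for generation by line.

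The choice of the 60 was less steady. Of the 60, 36 were chosen again with no level required of the mixtures (median of Allo-AT5 minus MPV5 then -1.45), 35 from S4 alone, 37 from S5 alone, 24 with the 2:1 mean of the parents in place of the mixture and, both chosen after seeing the data, 24 in the upper band alone and 18 in the lower. Leaving out 1 array kept 22 to 55: 22 without replicate 1 of MPV5, 34 without its replicate 2, and 28 and 32 without replicates 1 and 2 of MPV9. The 60 as chosen were below both mixtures for 54, 58, 55 and 57 in these 4 cases and for all 60 without any 1 line array. Their medians ran from -1.40 to -1.04 in Allo-AT5 and from -1.40 to -1.14 in Allo-AT9. The causes were not tested.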
